A study of Mus musculus with 9 samples.

Results

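The genes described are 10 alcohol dehydrogenase (ADH) and aldehyde dehydrogenase (ALDH) genes of mouse liver, taken by name: Adh1, Adh4, Adh5, Aldh2, Aldh1a1, Aldh1a7, Aldh1b1, Aldh3a2, Aldh4a1 and Aldh8a1. They were chosen with earlier results of these data known. All 10 were found among the 27179 genes of the count table, and all 10 passed the filter on low counts that left 16860 genes for testing. The RNA came from livers of mice on the cholesterol-rich HFD for 12 weeks, started at 8 weeks of age. The study describes its 12-week experiment on female mice, with male livers also examined, and does not name the sex for this sequencing. The control group, labelled WT, was Apoe-/- (5 libraries), and the second group, labelled DKO, was Mif-2-/-Apoe-/- (4 libraries). Both groups therefore lacked Apoe, and the second group also lacked Mif-2 (gene symbol Ddt) in all tissues of the body. Each library was made from pooled lysates of frozen liver sections by Smart-seq2 after poly-A selection. The labels do not tie a library to an animal, so p-values measure the spread between these libraries only. The Apoe-/- group has more libraries than the study's text gives animals for this sequencing, so some of them may share an animal.

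Alcohol dehydrogenases oxidise alcohols such as ethanol and retinol to aldehydes, with NAD as the electron acceptor, and aldehyde dehydrogenases then oxidise aldehydes to acids. The liver is the main site of both steps, in the cytosol for most ADH enzymes and in the mitochondria, cytosol or endoplasmic reticulum for ALDH enzymes. Beyond ethanol, single members act on retinal, on long-chain fatty aldehydes, or on intermediates of proline and tryptophan breakdown.

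Total counts ranged from 2318148 to 10764182 per library. Levels are given as CPM, counts per 1000000 counts of the library after TMM normalization, which scales the libraries to one another. Ddt, the deleted gene, had 658 ± 283 CPM (SD) over the 5 Apoe-/- libraries and 4.18 ± 1.45 CPM (SD) over the other 4, so it matched the labels. The defining hepatocyte markers, Alb and 11 others, were present in every library, but their summed level varied from 81470 to 238600 CPM among Apoe-/- and from 73890 to 218300 CPM among Mif-2-/-Apoe-/- libraries. Apoe-/- replicate 5 and Mif-2-/-Apoe-/- replicate 3 were the lowest of their groups, and Mif-2-/-Apoe-/- replicate 2 was far above the other 3 of its group. In bulk tissue, fewer cells of a type and less RNA per cell cannot be told apart.

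In the annotation of GRCm38, the build that mm10 names, the 3 ADH genes lie in one cluster on the plus strand of chromosome 3. Adh1 spans chr3:138260991-138290698, Adh4 chr3:138415466-138430892 and Adh5 chr3:138443093-138455499. Aldh1a1 (chr19:20492715-20643465, plus strand) and Aldh1a7 (chr19:20692953-20727562, minus strand) are neighbours on opposite strands. Their coding sequences, 1503 bases each, were identical at 91.9% of 1501 aligned bases. A stretch of 100 bases, the length of a read, was shared exactly by the annotated transcripts of the pair at 1 position, of 4934 such windows in Aldh1a1 and 1967 in Aldh1a7, and by no other pair of ADH members or of ALDH members. How the authors' counting treated reads that match both genes is not given in the sources used here. Aldh2 (chr5:121566027-121593824), Aldh1b1 (chr4:45799022-45804604), Aldh3a2 (chr11:61223417-61267464), Aldh4a1 (chr4:139622866-139649690) and Aldh8a1 (chr10:21377291-21396585) stand apart from each other.

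RefSeq start-site windows of the same assembly (GRCm38.p6) matched 9 of the 10 genes, all but Aldh2, at 11 start sites. The 100 bases before the start are shown for Aldh1a1 (its downstream start site) and Aldh1a7, because these neighbours shared the direction and much of the size of the genotype difference, and for Aldh8a1, because it held the same 8 letters without a difference. Capitals mark ATGCAAAT, the octamer letters, and CCAAT. The windows are chr19:20601868-20601967 (plus strand), chr19:20727557-20727656 (minus strand) and chr10:21377200-21377299 (plus strand).
Aldh1a1: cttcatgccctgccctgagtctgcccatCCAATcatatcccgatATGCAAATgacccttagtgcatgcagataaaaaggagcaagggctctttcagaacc
Aldh1a7: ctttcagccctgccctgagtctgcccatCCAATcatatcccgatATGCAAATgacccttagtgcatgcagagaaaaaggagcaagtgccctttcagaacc
Aldh8a1: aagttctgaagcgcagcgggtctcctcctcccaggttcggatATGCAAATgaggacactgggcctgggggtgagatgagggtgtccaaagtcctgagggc

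Aldh1a1 and Aldh1a7 were identical at 94 of these 100 bases, with an unbroken run of 65. In both, ATGCAAAT began 56 bases before the start site and CCAAT 72 bases before it, while in Aldh8a1 ATGCAAAT began 58 bases before it. Searched on both strands in the 250 bases before the start, ATGCAAAT occurred in 3 of the 11 windows and in 1.6% of 32851 windows of all genes. CCAAT occurred in 33.8% of all windows and in those of Adh4, Aldh1a1, Aldh1a7, Aldh3a2 and Aldh4a1. TTATGTAA, a D-box spelling, was in none of the 11 windows and in 0.819% of all. These are matches of letters only, and the octamer was added to the search after the sequences were read.

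The largest differences between the genotypes were in Aldh1a1, a retinal dehydrogenase, Aldh2, the mitochondrial enzyme of acetaldehyde, and Aldh1a7, a relative of Aldh1a1. Their means were 2.98, 2.63 and 2.18 times as high over the 5 Apoe-/- libraries as over the 4 Mif-2-/-Apoe-/- libraries, with SEs of 0.39, 0.35 and 0.45 on the log2 scale. The 3 ADH genes, Aldh1b1 and Aldh3a2 had higher means in Apoe-/- livers too, by 1.29 to 2.01 times, but with libraries of the genotypes intermixed. The means of Aldh8a1 were close, and Aldh4a1, of proline breakdown, had the higher mean in Mif-2-/-Apoe-/- livers.

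By edgeR's quasi-likelihood test over all genes, 0 of the 10 genes passed an adjusted p of 0.05, beside 0.13% of all genes tested, and 3 of 10 had an unadjusted p under it, each higher in Apoe-/- livers, beside 6.52% of all genes on that side and 8.99% on the other. By DESeq2, 2 of the 10 passed an adjusted p of 0.05, Aldh1a1 and Aldh2, beside 5.27% of the genes that tool tested. In 3 of the 10 genes, Aldh2, Aldh1a1 and Aldh1a7, every Apoe-/- library was above every Mif-2-/-Apoe-/- library. This held for 2.24% of all genes tested, for 3.74% of those with a mean of 10 CPM or more, and for none of the 16 other ADH and ALDH genes tested. Because the 10 genes were chosen with earlier results of these data known, the comparisons in this paragraph are a description. The log2 fold change (Apoe-/- over Mif-2-/-Apoe-/- throughout) was above 0 in 9 of 10, beside 43.5% of all genes and 47.8% of those with a mean of 10 CPM or more. Its median was 0.72 over the 10 genes and -0.17 over all genes tested, and under another scaling (TMMwsp) the medians were 0.89 and 0.00. Scaling the libraries on their hepatocyte markers lowered both medians, to 0.21 over the 10 genes and -0.62 over all genes, and scaling on library totals put that of all genes at -0.35. Without such scaling, 7 of the 8 hepatocyte markers tested were also above 0 (median 0.57). So were 7 of 9 pericentral hepatocyte markers (median 0.54) and 4 of 9 periportal ones (median -0.17).

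**Figure D1:**
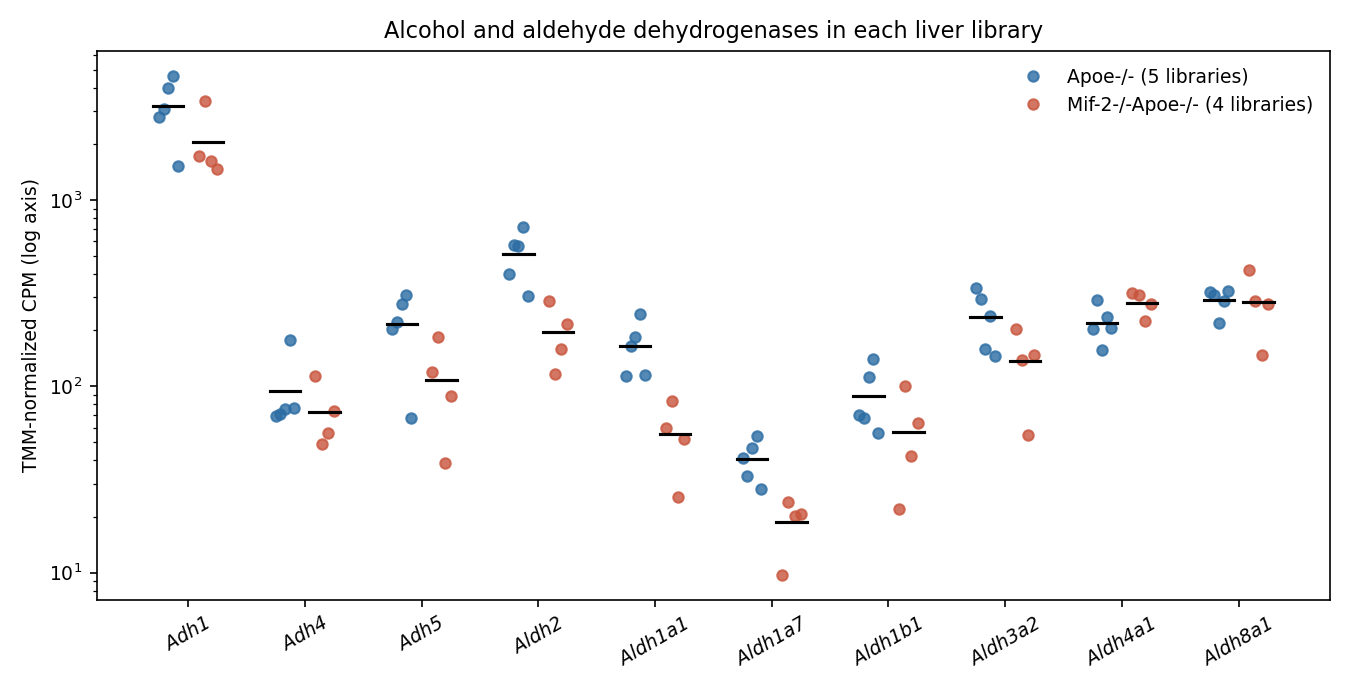
TMM-normalized CPM on a log axis for the 10 genes. Each point is a library, 5 from Apoe-/- (blue) and 4 from Mif-2-/-Apoe-/- (red) livers, and black lines are group means. The points of Aldh2, Aldh1a1 and Aldh1a7 do not overlap between genotypes, and those of the other 7 do.

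Per kilobase of annotated exon, Adh1 was by far the most abundant member, with 1436 ± 534 CPM per kb (SD, n = 5) among Apoe-/- and 919 ± 410 (SD, n = 4) among Mif-2-/-Apoe-/- livers. Its lowest library, at 654 CPM per kb, was above the highest of every other member. The order of the group means in Apoe-/- livers continued with Aldh2 at 99.9 ± 31.1, Aldh8a1 at 66.5 ± 9.76 and Adh4 at 65.0 ± 32.3 CPM per kb. Aldh4a1, Aldh3a2, Adh5, Aldh1b1 and Aldh1a1 followed between 44.6 and 33.3 CPM per kb, with ranges that overlap, and Aldh1a7 was lowest at 19.7 ± 5.08. In Mif-2-/-Apoe-/- livers the second place went to Aldh8a1 at 64.7 ± 25.6, followed by Aldh4a1 at 57.4 ± 8.58 and Adh4 at 50.5 ± 20.1 CPM per kb, with Aldh2 next at 37.9 ± 14.5. Aldh1a1 and Aldh1a7 were last there, at 11.2 ± 4.80 and 8.996 ± 2.958 CPM per kb. Neighbours in either order below Adh1 overlapped in their ranges over libraries.

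Adh1 encodes the class I enzyme, the main ethanol-oxidising ADH of liver. It was at 2802, 3076, 3984, 4645 and 1526 CPM in Apoe-/- replicates 1 to 5 and at 1719, 3417, 1613 and 1460 CPM in Mif-2-/-Apoe-/- replicates 1 to 4. The group means were 3206 ± 1191 (SD, n = 5) and 2052 ± 916 (SD, n = 4). Replicate 2 of the Mif-2-/-Apoe-/- group stood far above the other 3, inside the Apoe-/- range, and Apoe-/- replicate 5 stood inside the other group. On the log2 scale the difference was 0.64 ± 0.38 (SE) and did not pass the test (edgeR adjusted p = 0.44). The summed hepatocyte markers of both libraries also departed from their group, at 218300 and 81470 CPM, and the part of this in the result was not tested. Without Mif-2-/-Apoe-/- replicate 2 the log2 fold change of Adh1 was 1.10, and scaled on hepatocyte markers it was 0.10.

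Adh5, the class III enzyme that removes formaldehyde bound to glutathione, had the largest difference of the 3 ADH genes. It was at 203.5, 220.8, 275.1, 310.6 and 67.8 CPM in Apoe-/- and at 119.6, 183.4, 38.6 and 88.5 CPM in Mif-2-/-Apoe-/- libraries. Of the 5 Apoe-/- libraries, 4 were above all of the other group, and replicate 5 lay near its bottom. The fitted log2 fold change was 1.01 ± 0.47 (SE), with an edgeR adjusted p of 0.32 and a DESeq2 adjusted p of 0.24.

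Adh4, the class II enzyme, which takes retinol and larger alcohols, differed least among the ADH genes. The Apoe-/- libraries were at 69.7, 71.2, 75.6, 177.8 and 76.9 CPM, so that 4 lay close together and replicate 4 far above. The other genotype had 114.1, 48.8, 56.4 and 73.6 CPM, values on both sides of that group of 4. Its difference on the log2 scale was 0.36 ± 0.39 (SE, edgeR adjusted p = 0.71), fell to 0.07 without Apoe-/- replicate 4, and was -0.24 when libraries were scaled on their hepatocyte markers, beside -0.62 for the median of all genes.

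Aldh2, the mitochondrial enzyme that clears most acetaldehyde, showed one of the largest differences. It was at 400.7, 574.8, 564.3, 713.0 and 306.7 CPM in Apoe-/- and at 286.9, 115.9, 158.5 and 216.7 CPM in Mif-2-/-Apoe-/- libraries. The genotypes did not overlap, though the lowest Apoe-/- and the highest Mif-2-/-Apoe-/- library were close. The fitted difference was 2.63-fold, or 1.39 ± 0.35 in log2 (SE, 95% interval 0.64 to 2.15). Aldh2 passed the test of DESeq2 (adjusted p = 0.00334) and not that of edgeR (adjusted p = 0.14), and a permutation of the library labels (exact, two-sided) gave p = 0.0159 for this gene alone. Scaled on hepatocyte markers, the log2 fold change was 0.74, while that of all genes had a median of -0.62.

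Aldh1b1, the other mitochondrial enzyme for acetaldehyde among the members, did not separate the genotypes. Its Apoe-/- libraries were at 69.8, 67.4, 112.7, 139.3 and 56.1 CPM and its Mif-2-/-Apoe-/- libraries at 22.0, 100.5, 42.3 and 63.3 CPM. Replicate 2 of the latter group was above 3 of the 5 Apoe-/- libraries. Its difference on the log2 scale was 0.65 ± 0.44 (SE, edgeR adjusted p = 0.51), with 1.15 when that library was left out, 0.37 without Mif-2-/-Apoe-/- replicate 1 and 0.14 on hepatocyte markers. Within a library, Aldh1b1 ranged from 11.7 to 20.0 counts per 100 counts of Aldh2 in Apoe-/- and from 7.65 to 86.8 in Mif-2-/-Apoe-/- livers, so the ratio varied far more in the latter.

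Aldh1a1, the cytosolic retinal dehydrogenase that makes retinoic acid, had the largest difference of the 10 genes. It was at 113.5, 164.0, 184.0, 245.5 and 115.6 CPM in Apoe-/- and at 60.0, 82.9, 25.5 and 52.4 CPM in Mif-2-/-Apoe-/- libraries. Every Apoe-/- library was above every library of the other group, with a clear gap. The means were 164.5 ± 54.7 (SD, n = 5) against 55.2 ± 23.7 CPM (SD, n = 4). The fitted difference was 2.99-fold, or 1.58 ± 0.39 in log2 (SE, 95% interval 0.75 to 2.41). The DESeq2 adjusted p was 0.00426 and the edgeR adjusted p 0.13, and the exact two-sided permutation p was 0.00794, the smallest that 5 against 4 libraries can give. Leaving out Mif-2-/-Apoe-/- replicate 2, Aldh1a1 passed with edgeR too (adjusted p = 0.042, log2 fold change 1.94), and over its 19 alternatives the adjusted p of edgeR or DESeq2 ran from 0.00426 to 0.261. Scaled on hepatocyte markers, it was 1.11.

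Aldh1a7, the neighbour and close relative of Aldh1a1, was the least abundant member, with 42 to 299 counts per library. It was at 41.0, 33.0, 46.5, 54.4 and 28.1 CPM in Apoe-/- and at 9.76, 23.9, 20.2 and 20.6 CPM in Mif-2-/-Apoe-/- libraries. The genotypes did not overlap, with 28.1 CPM above 23.9. Its fitted log2 fold change was 1.13 ± 0.45 (SE), without passing either tool (edgeR adjusted p = 0.26, DESeq2 adjusted p = 0.0812), while the exact permutation p was again 0.00794. Aldh1a7 ran at 20.1 to 36.2 counts per 100 counts of Aldh1a1 in Apoe-/- and at 16.3 to 79.2 in Mif-2-/-Apoe-/- livers, ranges that overlap. The deviations of Aldh1a1 and Aldh1a7 from their genotype means had a Pearson r of 0.24 over the 9 libraries. Aldh1a7 had only 42 to 90 counts in the Mif-2-/-Apoe-/- libraries. The upstream start site of Aldh1a1 held neither ATGCAAAT nor CCAAT in its window. A link between the start-site windows printed above and these values was not tested.

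Aldh3a2, the fatty aldehyde dehydrogenase of the endoplasmic reticulum, which clears long-chain aldehydes from lipid breakdown, was at 336.7, 295.9, 158.7, 239.9 and 145.2 CPM in Apoe-/- livers. In Mif-2-/-Apoe-/- livers it was at 204.2, 139.1, 54.7 and 147.0 CPM. The 3 highest of the 9 libraries were Apoe-/-, and the lowest was Mif-2-/-Apoe-/- replicate 3. The difference, 0.79 ± 0.39 on the log2 scale (SE), did not pass the test (edgeR adjusted p = 0.35, DESeq2 adjusted p = 0.23).

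Aldh4a1, the mitochondrial enzyme that completes the oxidation of proline to glutamate, was the only member with a log2 fold change below 0. It was at 203.9, 291.3, 156.3, 234.6 and 206.8 CPM in Apoe-/- and at 315.8, 310.6, 224.5 and 275.5 CPM in Mif-2-/-Apoe-/- libraries. The 2 highest libraries were Mif-2-/-Apoe-/-, but the ranges overlapped between 224.5 and 291.3 CPM. That change was -0.36 ± 0.28 (SE, 95% interval -0.96 to 0.23, edgeR adjusted p = 0.56). It was -0.17 without Apoe-/- replicate 3, -0.22 without Mif-2-/-Apoe-/- replicate 2 and -0.84 on hepatocyte markers.

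Aldh8a1, the enzyme of 2-aminomuconate semialdehyde in tryptophan breakdown, was at 319.8, 308.2, 219.7, 287.6 and 324.7 CPM in Apoe-/- and at 422.2, 287.4, 147.4 and 278.2 CPM in Mif-2-/-Apoe-/- livers. Both the highest and the lowest library belonged to Mif-2-/-Apoe-/-. Its log2 fold change was 0.04 ± 0.32 (SE, 95% interval -0.64 to 0.72, edgeR adjusted p = 0.97), and it was -0.12 on library totals and -0.35 on hepatocyte markers, where the medians of all genes were also lower, at -0.35 and -0.62. Without Mif-2-/-Apoe-/- replicate 3 it was -0.17.

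**Figure D2:**
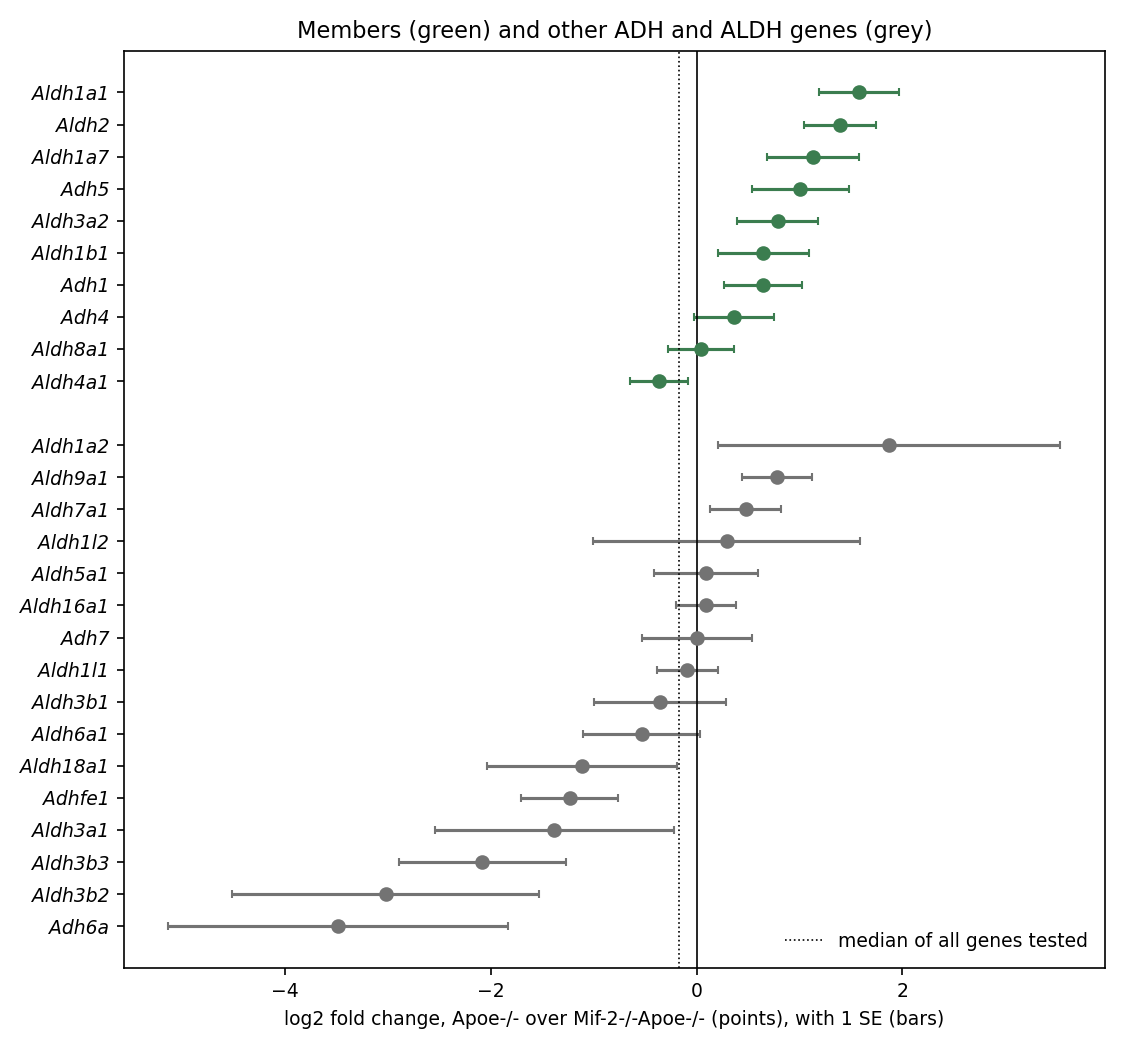
Log2 fold change, Apoe-/- over Mif-2-/-Apoe-/- (points, edgeR), with 1 SE (bars), for the 10 genes (green) and the 16 other ADH and ALDH genes tested (grey). The dotted line is the median of all genes tested, -0.17. Aldh1a1 and Aldh2 lie farthest to the right of the green points, and only Aldh4a1 lies left of 0 among them.

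The share of each gene among the ALDH members of a library does not depend on the scaling between libraries, and shares are given as a description, without a test. Of the summed ALDH level per kilobase, Aldh2 made 24.0, 30.1, 33.5, 32.2 and 22.7% in Apoe-/- and 20.0, 9.11, 20.2 and 17.9% in Mif-2-/-Apoe-/- livers. Aldh4a1 made 12.8, 15.9, 9.68, 11.1 and 16.0% against 23.0, 25.5, 29.8 and 23.8%. The shares of Aldh2 and Aldh4a1 thus stood in opposite order in the genotypes, without overlap. Shares add up to a fixed total, so a lower share of some genes raises those of the others. The CPM of Aldh4a1 itself overlapped between the genotypes (log2 fold change -0.36, edgeR adjusted p = 0.56). Such shares were not taken for other sets of genes. Aldh1a1 made 7.06 to 11.5% against 3.36 to 6.77%, and the other 4 genes overlapped. Among the ADH genes, by contrast, Adh1 made 91.3 to 94.5% of the summed level per kilobase in Apoe-/- and 88.4 to 95.8% in Mif-2-/-Apoe-/- livers.

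**Figure D3:**
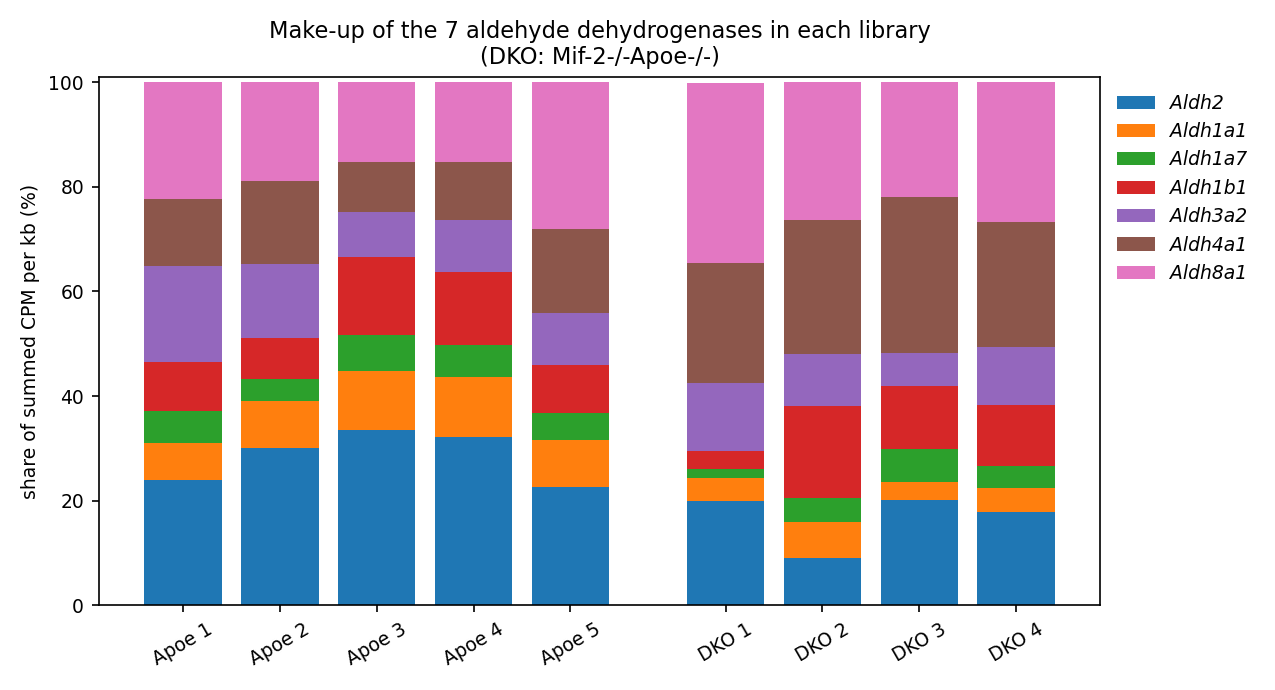
Share (%) of each of the 7 ALDH genes in their summed CPM per kilobase, 1 bar for each library, Apoe-/- at left and Mif-2-/-Apoe-/- (DKO) at right. The blue Aldh2 block is 22.7 to 33.5% at left and 9.11 to 20.2% at right, and the brown Aldh4a1 block 9.68 to 16.0% at left and 23.0 to 29.8% at right.

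The 7 ratios taken between pairs of members all overlapped between the genotypes, among them Aldh2 per 100 counts of Adh1, at 14.2 to 20.1 in Apoe-/- and 3.39 to 16.7 in Mif-2-/-Apoe-/- livers. Ratios to Aldh4a1 were added after its values were seen. Per 100 counts of Aldh4a1 there were 197, 197, 361, 304 and 148 counts of Aldh2 in Apoe-/- and 90.9, 37.3, 70.6 and 78.7 in Mif-2-/-Apoe-/- livers. Aldh2 thus exceeded Aldh4a1 in counts in every Apoe-/- library and in no Mif-2-/-Apoe-/- library. Aldh1a1 ranged from 55.7 to 118 against 11.3 to 26.7, and Aldh3a2 from 70.2 to 165 against 24.4 to 64.6. Of the 9 other members, 4 had ratios to Aldh4a1 without overlap, the fourth being Aldh1a7. Of all genes with a mean of 10 CPM or more, 9.81% had such a ratio to Aldh4a1, higher in every Apoe-/- library, and Aldh4a1 was taken as the base because it ran the other way.

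**Figure D4:**
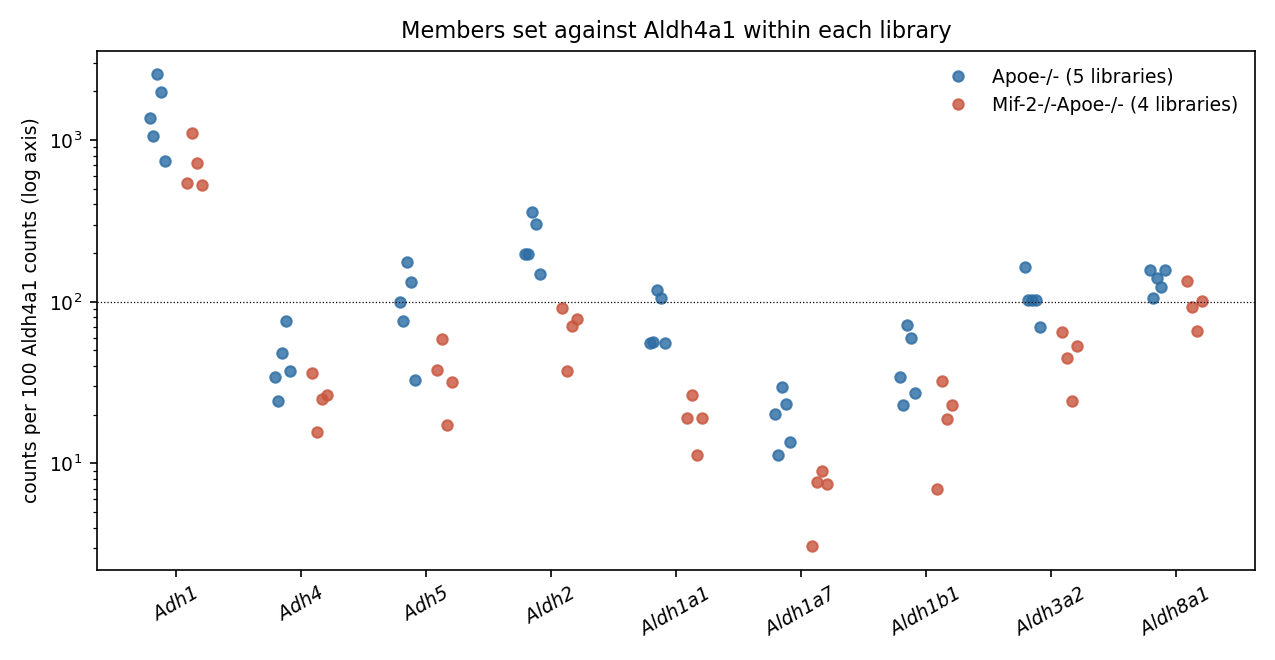
Counts of 9 members per 100 counts of Aldh4a1 in the same library, on a log axis, for 5 Apoe-/- (blue) and 4 Mif-2-/-Apoe-/- (red) libraries, with the dotted line at 100. The points of Aldh2, Aldh1a1, Aldh1a7 and Aldh3a2 do not overlap between genotypes.

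Across libraries the members did not move as one block. The median over the 10 genes of the deviation from the gene's own mean, in log2(CPM + 0.5), was highest in Apoe-/- replicate 4 (1.01) and lowest in Mif-2-/-Apoe-/- replicate 3 (-0.78), where 0 of 10 genes were above their mean. Apoe-/- replicate 5, at -0.13 with 3 of 10 genes above their mean, lay among the Mif-2-/-Apoe-/- libraries, which ran from -0.78 to -0.08. The summed hepatocyte markers were also at their highest in Apoe-/- replicate 4 and at their lowest in Mif-2-/-Apoe-/- replicate 3, and their part in the result was not tested. After the genotype means were subtracted, 34 of the 45 pairs of members had a Pearson r above 0 over the 9 libraries, with a median of 0.34. Aldh1a7 and Aldh1b1 were the closest pair (r = 0.92), then Adh5 with Aldh1a1 (r = 0.87) and Adh1 with Adh5 (r = 0.86), and Aldh1a7 and Aldh8a1 were the most opposed (r = -0.58). These points share library, depth and cell make-up.

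**Figure D5:**
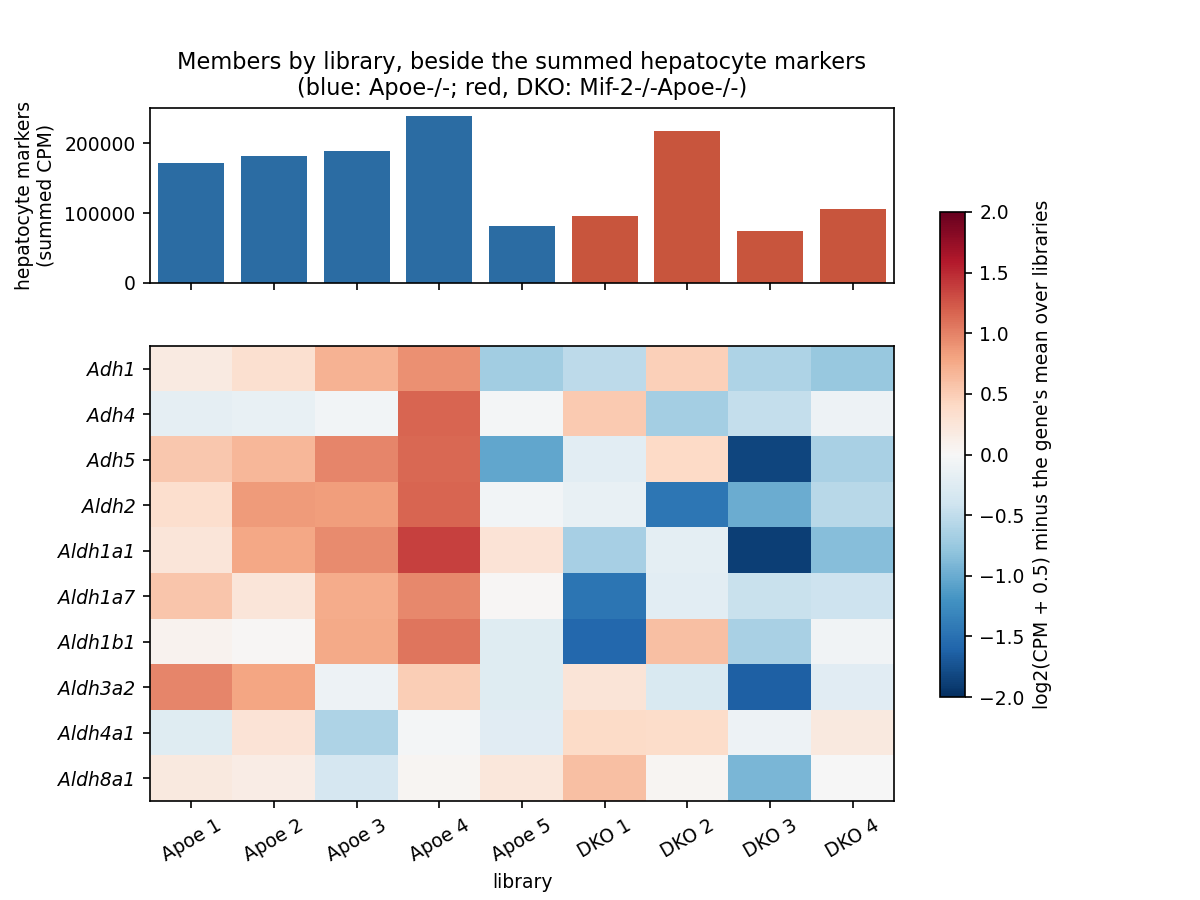
Top, the summed CPM of 12 hepatocyte markers in each library, Apoe-/- in blue and Mif-2-/-Apoe-/- (DKO) in red. Bottom, log2(CPM + 0.5) of each member minus its mean over the 9 libraries, from blue (lower) to red (higher). Mif-2-/-Apoe-/- replicate 3 is at or below the mean for all 10 genes, and the deepest blue of Aldh4a1 is in Apoe-/- replicate 3.

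Over 8143 genes with a mean of 10 CPM or more, the genes whose deviations from the genotype mean were most like those of a member are given with r over the 9 libraries. For Adh1 they were Zbed5 (r = 0.993), Chchd10 (r = 0.993) and Gadd45gip1 (r = 0.990), and for Adh5 Chchd7 (r = 0.991), Slc38a4 (r = 0.985) and Pdlim1 (r = 0.985). For Aldh2 they were Odf3b (r = 0.959), Scnn1a (r = 0.958) and Serpina3k (r = 0.945), and for Aldh1a1 Mn1 (r = 0.991), Gnai2 (r = 0.981) and Eci1 (r = 0.977). Aldh3a2 was closest to Kctd17 (r = 0.987), Fxyd5 (r = 0.975) and Serpina3m (r = 0.972), and Aldh8a1 to Caml (r = 0.979), Epn2 (r = 0.961) and Slc45a3 (r = 0.959). The remaining members had their closest genes at lower r: Ctr9, Hcn3 and Cox16 for Aldh1a7 (0.944 to 0.935), Rbbp4, Naca and Galnt10 for Aldh1b1 (0.953 to 0.942), C330022C24Rik, Cyth4 and Repin1 for Adh4 (0.957 to 0.927), and Tsc22d4, Cct8 and Elmo2 for Aldh4a1 (0.920 to 0.909). With 9 points and so many genes, such values are a description of these libraries.

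Of the 18 other ADH and ALDH genes in the table, 16 were tested and Adh6b and Aldh1a3 were not. None of the 16 passed by edgeR or DESeq2, 1 had an unadjusted p under 0.05 on the Apoe-/- side and 2 on the other, and none was free of overlap. Their log2 fold change was above 0 in 6 and below 0 in 10, with a median of -0.22. Aldh9a1, which oxidises aminobutyraldehydes, had 123 ± 21.7 CPM (SD) in Apoe-/- and 71.5 ± 32.2 CPM (SD) in the other livers (log2 fold change 0.78 ± 0.34, SE). Adhfe1, the hydroxyacid-oxoacid transhydrogenase of mitochondria, ranged from 20.8 to 45.6 CPM and from 27.3 to 143.6 CPM (-1.23 ± 0.47), with Mif-2-/-Apoe-/- replicate 1 the highest. Aldh3b3 was at 11.1 ± 10.6 and 46.8 ± 41.6 CPM (-2.08 ± 0.81).

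The abundant ones among them, Aldh1l1 of folate metabolism (1142 ± 284 and 1216 ± 230 CPM), Aldh16a1 (391 ± 58.0 and 368 ± 109 CPM) and Aldh7a1 of lysine breakdown (319 ± 109 and 230 ± 65.9 CPM), had log2 fold changes of -0.09 ± 0.29, 0.09 ± 0.29 and 0.48 ± 0.35 (SE). Adh7 and Aldh5a1 were between 0.00 and 0.09, and Aldh3b1, Aldh6a1 and Aldh18a1 between -0.36 and -1.11. Adh6a, Aldh1a2, Aldh1l2, Aldh3a1 and Aldh3b2 stayed under 10 CPM on average in both genotypes, and their log2 fold changes, from -3.48 to 1.87, had SEs of 1.16 or more.

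The genes that work beside the members were counted in 6 lists, with 91 of 96 genes tested and a median log2 fold change of 0.21. By edgeR 2 of the 91 were called, beside 0.13% of all genes tested. By DESeq2 4 were called higher and 5 lower in Apoe-/- livers, beside 5.27% of all genes that tool tested. For the counts by unadjusted p of each list, the shares of all genes were 6.52% on the Apoe-/- side and 8.99% on the other. In retinoid metabolism, 25 genes were tested, 16 of them above 0, with a median of 0.23. None passed by edgeR, 3 and 1 had an unadjusted p under 0.05 on the Apoe-/- and the other side, and DESeq2 called 1 on each side. Rdh7, which turns retinol into retinal, was at 1286, 1560, 1309, 1622 and 717 CPM in Apoe-/- and at 607, 801, 483 and 792 CPM in Mif-2-/-Apoe-/- livers, overlapping only through Apoe-/- replicate 5 (log2 fold change 0.95 ± 0.32, DESeq2 adjusted p = 0.0329). Cyp26a1, which degrades retinoic acid and is a known target gene of it, stood the other way, at 16.6, 29.9, 41.8, 21.6 and 34.3 CPM in Apoe-/- and 81.5, 124.4, 170.1 and 20.6 CPM in Mif-2-/-Apoe-/- livers. On the log2 scale it differed by -1.79 ± 0.51 (SE), with a DESeq2 adjusted p of 0.0315 and an edgeR adjusted p of 0.15, and replicate 4 of the Mif-2-/-Apoe-/- group lay inside the Apoe-/- range.

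Of 22 other genes of alcohol and aldehyde oxidation and reduction, 14 were above 0, with a median of 0.71, 7 had an unadjusted p under 0.05 on the Apoe-/- side and 2 on the other, none passed by edgeR, and DESeq2 called 1 on each side. Akr7a5, an aldehyde reductase, was at 405 ± 77.7 and 216 ± 47.2 CPM without overlap (log2 fold change 0.90 ± 0.29, DESeq2 adjusted p = 0.016). Cat, the peroxisomal catalase, was at 588 ± 181 and 303 ± 93.8 CPM (0.96 ± 0.34). Acss2, which activates the acetate that ALDH enzymes leave, was lower in Apoe-/- livers without overlap, at 17.6, 19.7, 30.5, 22.4 and 16.1 CPM against 68.3, 71.6, 58.2 and 46.6 CPM. Its log2 fold change was -1.53 ± 0.38 (SE), with an edgeR adjusted p of 0.13 and a DESeq2 adjusted p of 0.000242. Aldh2 was thus higher and Acss2 lower in Apoe-/- livers, and a link between the 2 was not tested. The share of all genes that were lower in Apoe-/- livers without overlap was not counted. Acss1, also in this list, was near the floor at 0.90 ± 0.65 and 1.57 ± 1.85 CPM (-0.85 ± 1.13).

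Of 10 tested genes listed under fatty aldehyde formation and removal, 9 were above 0, with a median of 0.40. The list is broad and not every gene in it acts on fatty aldehydes. None passed by edgeR or DESeq2, and 2 had an unadjusted p under 0.05, on the Apoe-/- side. Cyp4f14, an omega-hydroxylase, was at 363 ± 88.1 and 209 ± 68.3 CPM. Ephx2, the soluble epoxide hydrolase, which acts on epoxides and not on aldehydes, was at 533 ± 141 and 328 ± 24.1 CPM without overlap. Hacl1, which cleaves hydroxylated acyl-CoA to a fatty aldehyde, was at 127 ± 39.9 and 91.6 ± 38.1 CPM.

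The 8 genes of proline and hydroxyproline breakdown, the pathway of Aldh4a1, split in direction, with 5 above 0 and 3 below and a median of 0.75. By unadjusted p under 0.05 there were 5 on the Apoe-/- side and 2 on the other, by DESeq2 2 and 0, and by edgeR none. Oat, ornithine aminotransferase, was at 588 ± 216 and 216.5 ± 126.2 CPM (log2 fold change 1.44 ± 0.41, DESeq2 adjusted p = 0.0149), Agxt at 1027 ± 247 and 500.1 ± 190 CPM (1.04 ± 0.34) and Got2 at 277 ± 75.9 and 148 ± 41.5 CPM (0.91 ± 0.32). Prodh, the enzyme one step before Aldh4a1, was added to the named genes after its values were seen. It was at 663, 668, 271, 495 and 588 CPM in Apoe-/- and at 1731, 459, 951 and 1458 CPM in Mif-2-/-Apoe-/- livers, which differed by -1.10 ± 0.39 on the log2 scale (SE, edgeR adjusted p = 0.21), in the direction of Aldh4a1. Of the Mif-2-/-Apoe-/- libraries 3 were above all Apoe-/- libraries and replicate 2 was below 4 of them. The rest of the list was also named after its values were seen. Prodh2 (log2 fold change -0.71 ± 0.38, SE) and Hoga1 (-0.69 ± 0.31) were below 0 like Prodh. Glud1 (0.86 ± 0.36) and Grhpr (0.63 ± 0.28) were above 0 like Oat, Agxt and Got2.

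Of the 13 genes of tryptophan breakdown through kynurenine, the pathway of Aldh8a1, 6 were above 0 and 7 below, with a median of -0.01. None passed by edgeR or DESeq2, and 1 had an unadjusted p under 0.05 on the Apoe-/- side and 2 on the other. Tdo2, which opens the pathway, was at 53.9 ± 22.4 and 20.4 ± 12.1 CPM (log2 fold change 1.41 ± 0.53). Afmid and Kyat1, which act on kynurenine and its precursor, were at 257 ± 49.1 and 460 ± 212 CPM (-0.84 ± 0.34) and at 614 ± 111 and 1038 ± 369 CPM (-0.76 ± 0.31).

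Among 16 genes listed as regulators, a role in these livers that was not tested, the 2 genes that edgeR called were both lower in Apoe-/- livers, while 11 of the 16 were below 0. Dbp, a transcription factor that binds D-box sites under the circadian clock, was at 6.45, 8.98, 12.7, 0.806 and 12.4 CPM in Apoe-/- and at 425, 179, 432 and 359 CPM in Mif-2-/-Apoe-/- livers. The fitted difference was -5.42 ± 0.59 in log2 (SE, edgeR adjusted p = 0.000888). Tef, of the same family, was at 139.5, 105.4, 80.3, 36.7 and 32.3 CPM against 782, 443, 556 and 615 CPM, with a log2 fold change of -2.92 ± 0.43 (edgeR adjusted p = 0.0123). For both, every Mif-2-/-Apoe-/- library was above every Apoe-/- library. DESeq2 called these and Nr1i3, the xenobiotic receptor CAR, also lower in Apoe-/- livers, at 314, 388, 231, 382 and 578 CPM against 1881, 354, 1162 and 1465 CPM (log2 fold change -1.68 ± 0.42, DESeq2 adjusted p = 0.00798, edgeR adjusted p = 0.14). Nr1i3, named after its values were seen, overlapped through Mif-2-/-Apoe-/- replicate 2. The hour at which the livers were collected is not given in the labels, and its part in the values of Dbp and Tef was not tested.

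Marker genes of liver cell types gave the setting of these values. The 9 pericentral hepatocyte markers, Oat among them, summed to between 2014 and 4821 CPM in Apoe-/- and between 1406 and 2966 CPM in Mif-2-/-Apoe-/- livers, and the 9 periportal markers to between 2062 and 4304 and between 3974 and 6804 CPM. The periportal sum was thus higher, and the pericentral sum lower, in Mif-2-/-Apoe-/- livers by their medians, 5072 against 3548 and 2502 against 3927 CPM, with overlap in both, and the part of this in the values of Aldh2, Aldh1a1 and Aldh4a1 was not tested. The periportal list itself was mixed, with 4 of 9 genes above 0 and 5 below and a median of -0.17. Pck1, at 834 ± 282 and 1886 ± 787 CPM, and Sds, at 485 ± 152 and 1304 ± 260 CPM, 2 genes of amino acid use and glucose production, carried the difference of its sum, while Cyp2f2 (log2 fold change 0.75), Hsd17b13 (0.83) and Ctsc (1.22) lay on the other side. In the pericentral list 7 of 9 genes were above 0 and 2 below, and only Oat had an unadjusted p under 0.05 (edgeR). The 2 below were Lgr5, at 4.61 ± 6.51 and 20.1 ± 19.7 CPM, and Axin2, at 16.0 ± 9.70 and 21.1 ± 7.09 CPM. The abundant Cyp2e1, at 1404 ± 435 and 826 ± 331 CPM, weighs most in that sum. The macrophage sum ran from 1272 to 2932 and from 1404 to 2032 CPM. Sums for stellate, endothelial, bile duct, lymphoid and erythroid cells were at most 596.9 CPM in any library, each overlapping between the genotypes.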

How the data were processed

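Liver RNA of 9 libraries was measured by bulk RNA sequencing. The deposited table holds raw counts for each Entrez identifier, as the authors' counting gave them, and 1 line without a gene was left out. The submitters' processing notes name FastQC, cutadapt, HISAT2 and mm10, while the counting program and its strand setting are not given in the sources used here. Without that setting, counts of overlapping genes may be shared. Symbols were matched to 25275 of 27179 identifiers through RefSeq gene names.

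A gene was kept if either genotype had 3 libraries with 1 count or more, and the 10 most abundant genes were left out. The study's reporting summary gives this filter for its bulk RNA-seq without naming the set, and its methods give it for liver lysates, with further gene classes removed that were kept here. The 16860 genes were tested with edgeR 4.0.16 under R 4.3.3 (TMM, quasi-likelihood test, Benjamini-Hochberg adjustment over all genes, call at 0.05). The procedure was run on simulated counts first. Recovery of changed genes was required there only at a spread below that of these libraries and for changes larger than those of the members. It therefore does not show whether differences of the members' size would be called. Standard errors were taken as log2 fold change over the square root of F. The biological coefficient of variation was 0.909. For single genes, log2(CPM + 0.5) was permuted over the libraries, exactly and two-sided. DESeq2 1.42.0 was an alternative, with scalings, filters, a replicate block and each library left out. Tables and figures used Python 3.11.15, pandas 2.3.3 and matplotlib 3.10.9. Lengths and coordinates are those of GENCODE on GRCm38.

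The members and lists were chosen with earlier results of these data known. Named genes were all members, the other ADH and ALDH genes tested, the called genes of each list or otherwise the 3 of lowest p, and for each member the 3 genes of highest correlation. Totals of 2318148 to 10764182 counts set the precision, where 1 count is 0.134 to 0.568 CPM. Some genes that this rule names are not reported here.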

Additional observations from a re-analysis of the deposited data

Results flagged for a closer look

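In 20 groups of libraries (10 genes, 2 genotypes), a single library stood apart from the rest of its group in 2, by a gap to its nearest neighbour that exceeded Dixon's 95% critical share of the range. Chance alone marks about 1 in 20 groups. Adh1 was at 3417 CPM in Mif-2-/-Apoe-/- replicate 2, with the other 3 libraries at 1460 to 1719 CPM and a gap of 0.868 of the range. Adh4 was at 177.8 CPM in Apoe-/- replicate 4, with the other 4 at 69.7 to 76.9 CPM and a gap of 0.934 of the range.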

How the results depend on the processing

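The number of members called, 0 by edgeR, was 2 with the replicate block, 2 by DESeq2 (Aldh2 and Aldh1a1 each time) and between 0 and 1 when each library was left out, the 1 being Aldh1a1 without Mif-2-/-Apoe-/- replicate 2. Of all genes, 0.13% were called by edgeR, 3.11% with the block, 5.27% by DESeq2, 1.6% without Mif-2-/-Apoe-/- replicate 2 and between 0.0548% and 0.777% without another library. The number of partner genes called, 2, was 8 with the replicate block, 9 by DESeq2 and between 1 (without Apoe-/- replicate 3 or 4) and 5 (without Mif-2-/-Apoe-/- replicate 2). The replicate block used 8 libraries by number, and without it these 8 gave 0 members called, 2 partners and 0.777% of all genes, an alternative added after seeing the data. That alternative is the same fit as the one without Apoe-/- replicate 5. The labels do not say whether equal numbers pair the samples. Deviations from the genotype means correlated at 0.14, -0.02, 0.01 and -0.03 between same-numbered libraries. Such values cannot settle whether the libraries were paired. The median over the members, 0.72, was 0.21 with hepatocyte marker scaling and between 0.54 and 1.13 with a library left out.

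Of 190 member values under 19 alternatives each, 6 changed sign, 3 of them under scalings that lowered the median of all genes too, from -0.17 to -0.35 on library totals and to -0.62 on hepatocyte markers. Adh4 was -0.24 with hepatocyte marker scaling. Aldh8a1 was -0.12 on library totals, -0.35 with hepatocyte marker scaling, -0.004 on the 8 libraries without the block, and between -0.17 (without Mif-2-/-Apoe-/- replicate 3) and 0.29 with a library left out, -0.004 without Apoe-/- replicate 5. The 8 libraries without the block and the fit without Apoe-/- replicate 5 are the same fit, so its sign change is counted under both names. With the longest transcript in place of the exon union, 5 of 10 members held their place in the order of levels in Apoe-/-, 7 in Mif-2-/-Apoe-/- livers and 6 in the order by the mean of both. What caused the other changes was not tested. No other ADH or ALDH gene was called under any alternative.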
